A study of Mus musculus with 8 samples.

Results

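The genes described here are the cyclins, kinases and inhibitors that set the G1 phase of the cell cycle in thymic epithelial cells (TEC). They are the D-type cyclins Ccnd1, Ccnd2 and Ccnd3, the kinases Cdk4 and Cdk6, the inhibitors Cdkn1a, Cdkn1b, Cdkn2a and Cdkn2c, and the retinoblastoma gene Rb1. They were taken by symbol, and all 10 were found among the 27514 genes shared by the 8 count matrices.

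D-type cyclins bind CDK4 or CDK6, and the active kinase phosphorylates the RB1 protein so that E2F factors are released and S phase genes are transcribed. The INK4 inhibitors, encoded by Cdkn2c and Cdkn2a, bind the kinases themselves, and the CIP/KIP inhibitors, encoded by Cdkn1a and Cdkn1b, bind complexes of cyclin and kinase. Cdkn2a also encodes ARF, which stabilises p53, and Cdkn1a is a classical p53 target. In the thymus, cortical TEC (cTEC) support the early steps of thymocyte development, and medullary TEC (mTEC), many of which pass through an Aire-expressing state, present self-antigens. The INK4 protein and ARF share the downstream exons of Cdkn2a, so a UMI from the 3' end of its transcripts cannot be assigned to either.

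The study compared TEC of the embryonic, newborn and adult thymus of wild-type (WT) mice of the strain C57 B6 (CD45.2) by single-cell RNA sequencing on the 10x Chromium platform. All cells were sorted as DAPI- EpCAM+ CD45-. Total TEC were taken at E13.5. At later ages (E15.5, then E17.5, newborns or NB, and adults) cTEC were taken as Ly51+ UEA-1-, and in adults also mTEC as Ly51- UEA-1+. The E13.5 library and the 5 cTEC libraries together are called the cortical line below, although E13.5 was not sorted for cortical cells, so that gate and age cannot be told apart in the step from E13.5 to E15.5. Each embryonic or newborn age had 1 library, and adult cTEC and adult mTEC had 2 each, numbered 1 and 2 by order of deposit. No genetic change, drug or transgene separated the groups. Embryonic thymi were dissociated with trypsin and EDTA and the newborn and adult thymi with Liberase and DNase, so that enzyme and age cannot be told apart across the birth boundary. E17.5, adult cTEC 2 and adult mTEC 2 belong to data set 2, and the remaining libraries to data set 1. Data set and age thus cannot be told apart between E15.5 and E17.5, E17.5 and NB, or NB and adult cTEC 2. Nothing in the labels says which animals went into a library. The p-values below rest on the spread between these libraries, which the fits share in part or fully across genes.

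Once the study's limits had been applied and cells with thymocyte or parathyroid markers set aside, 25400 of 28334 deposited cells remained, from 493 in adult cTEC 1 to 8309 at E17.5, with a median of 3920 to 11350 UMIs per cell. Any pair of libraries shared at most 61 cell barcodes. Cells with no UMI of Mki67 and none of Top2a are called quiet and the others cycling. Quiet cells can hold other cycle transcripts. Of the quiet cells, 176 of 576 at E13.5 had no UMI of 10 cycle genes, against 2113 of 5374 at E17.5, 341 of 414 in adult cTEC 1 and 1294 of 3691 in adult mTEC 2. The quiet sets may thus still include cycling cells, to an extent that differs between libraries. Where 4 values are given from E13.5 to NB, they stand in order of age. The cycling share was 69.4%, 43.5%, 35.3% and 21.8% from E13.5 to NB, 16.02% and 13.9% in adult cTEC, and 16.7% and 34.0% in adult mTEC. With each cell thinned to 2500 UMIs it was 52.9%, 28.8%, 15.1%, 12.3%, 10.3%, 5.48%, 7.41% and 12.3%. The 8 cTEC markers summed to 2337 CPM (UMIs scaled to a common library total) at E13.5, to between 11158 and 24292 in the 5 cTEC libraries, and to 1173 and 887 in adult mTEC. The sum of the 8 mTEC markers was 6103 CPM in adult cTEC 1 and 1353 in adult cTEC 2, against 9337 and 4985 in adult mTEC, so adult cTEC 1 carried medullary transcripts. Summed transcripts of 12 genes known to respond to dissociation were at 421 to 591 CPM in the 3 embryonic libraries, 10328 in NB, 18165 and 9781 in adult cTEC and 8266 and 4223 in adult mTEC. The 6 myeloid markers summed to at most 1.93 CPM in the 4 younger libraries, 360 and 30.7 in adult cTEC and 460 and 586 in adult mTEC, and the thymocyte markers to 5.93 to 47.7 in all. The 8 mesenchymal markers summed to 8.32 to 33.6 CPM in the younger libraries, 510 and 338 in adult cTEC and 99.8 and 69.2 in adult mTEC. The parathyroid markers were at 831 CPM in the kept E13.5 cells and at 2.27 to 88.2 elsewhere, the thyroid markers at 79.0 and at most 7.38. The erythroid markers were at 350 CPM at E17.5, 84.9 and 108 in adult mTEC and at most 14.7 elsewhere, and the endothelial markers at 85.7 in adult cTEC 1 and at most 30.2 elsewhere. The part of the dissociation, myeloid, mesenchymal, parathyroid and endothelial transcripts in the age and lineage differences below was not tested.

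Since the study followed the growth regulator Myc in TEC, the promoters of the members were searched for the letters that a Myc and Max dimer binds, CACGTG, a palindrome that reads the same on both strands. RefSeq promoter windows (GRCm38.p6, 250 bases before to 50 after each start) were matched for 7 of the 10 genes, with 11 windows in all. The letters were in 3 of the 11 windows, against 7.15% of all 32851 windows. The Cdk4 window, chr10:127063285-127063584 on the plus strand, held 4 copies, and at least 4 were found in 8 of the 32851 windows (0.0244%). They are shown with 7 bases on either side, the motif in capitals, since Cdk4 had by far the most copies among the members:

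Cdk4 chr10:127063356-127063375: agccagtCACGTGccacaca

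Cdk4 chr10:127063410-127063429: aaggggtCACGTGggatagc

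Cdk4 chr10:127063430-127063449: aacaggtCACGTGgccgtca

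Cdk4 chr10:127063517-127063536: tgaagatCACGTGtccagaa

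The copies begin 172, 118, 98 and 11 bases before the annotated start. Cdk6 held 1 copy and the downstream of the 2 Cdkn2c windows 1. The letters TTTNNCGC, a form of the E2F site searched on both strands, were in the Cdk6 window and in both Cdkn2a windows, against 5.17% of all windows, and in no window of a member did they overlap CACGTG. A match is a description of the sequence and shows no binding.

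The D-type cyclins differed from each other in their pattern over age and lineage. Ccnd1 (chr7:144929931-144939925, minus strand, GRCm38) was at 36.5, 4.47, 3.73 and 5.52 CPM from E13.5 to NB, 31.5 and 14.8 in adult cTEC, and 72.6 and 67.8 in adult mTEC. It was thus high at the earliest age, near its lowest from E15.5 to birth, and highest in adult mTEC. The 2 adult mTEC libraries overlapped each other and no other library. The fall between E13.5 and E15.5 was 8.15-fold, with a 95% counting interval of 6.69 to 10.0, and rests on 1 library each. At E13.5, where all TEC were taken, Ccnd1 was at 24.3 CPM in the 80.5% of cells holding Psmb11 or Prss16 UMIs, genes of the cortical proteasome and protease, and at 95.1 CPM in the others. In the 66 E13.5 cells with at least 2 of 5 thyroid markers it was at 139 CPM, against 32.8 in the remaining 1818 cells. Adult cTEC 2 showed the same split, with 8.11 CPM in cells with either cortical transcript and 52.6 without, whereas adult cTEC 1 had 28.6 and 40.1.

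Ccnd2 (chr6:127125162-127152193, minus strand) was at 682, 268, 361 and 404 CPM from E13.5 to NB, 382 and 558 in adult cTEC and 745 and 820 in adult mTEC. It was lowest at E15.5 and highest in adult mTEC, over a narrower range than Ccnd1, and the counting intervals of E17.5, adult cTEC 1 and NB overlapped in turn. With each cell thinned to 2500 UMIs, 39.2% (E15.5) to 67.1% (E13.5) of cells held a Ccnd2 UMI.

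Ccnd3 (chr17:47505051-47599691, plus strand) fell with age. It was at 143, 79.4, 94.9 and 48.4 CPM from E13.5 to NB, 44.9 and 36.5 in adult cTEC and 41.8 and 42.4 in adult mTEC. The 3 embryonic libraries lay above all 5 libraries from birth onwards, and the intervals of those 5 overlapped with their neighbours. Ccnd3 is also abundant in thymocytes, and the cells set aside for thymocyte markers had 101 to 220 CPM in the 5 libraries with at least 10 such cells.

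The share of cells with no UMI of any D-type cyclin at 2500 UMIs per cell was lowest at E13.5 (20.5%), highest at E15.5 (49.5%), and between 30.6% and 40.6% elsewhere. Ccnd2 alone was the most common pattern in cells with a cyclin UMI, from 30.9% of cells at E15.5 to 51.5% in adult cTEC 2. Ccnd2 and Ccnd3 were found together without Ccnd1 in 17.6% of E13.5 cells and in 4.05% to 11.8% of cells in the other libraries. Cells with Ccnd1 and Ccnd2 but not Ccnd3 made up 8.80% and 8.91% of adult mTEC, against 7.14% and 7.23% as the product of the shares with Ccnd1, with Ccnd2 and without Ccnd3, at most 2.07% of cells in the cTEC libraries and 4.09% at E13.5. The joint share exceeded the product 1.23-fold in both adult mTEC libraries and lay between 0.974 and 1.66 times the product in the other 6.

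**Figure D1:**
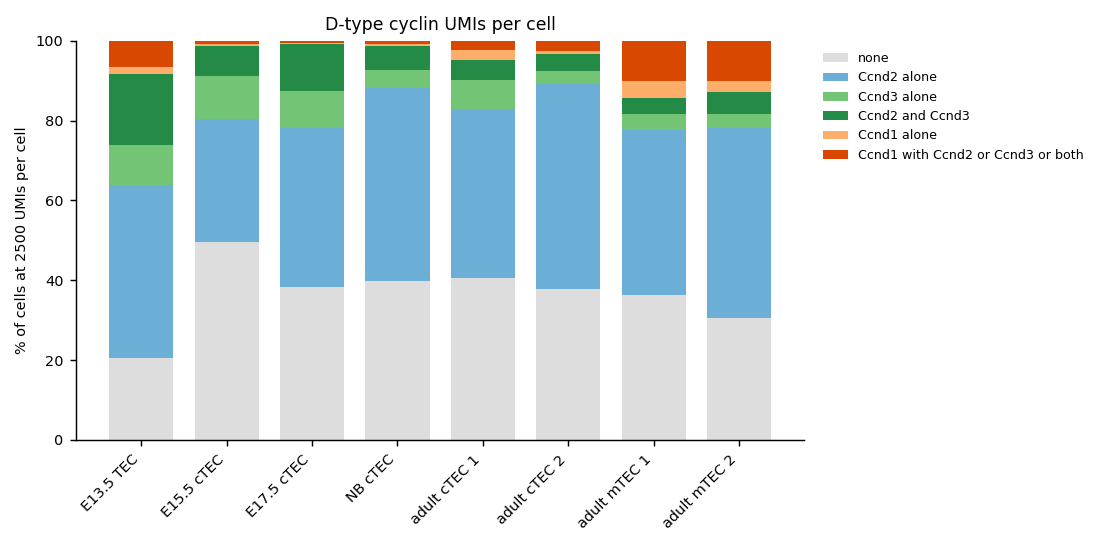
Share of cells (percent, bars stacked to 100) with UMIs of no D-type cyclin, of 1, or of several, in each of the 8 libraries after every cell was thinned to 2500 UMIs. The grey share without a cyclin UMI spans 20.5% (E13.5) to 49.5% (E15.5), and the orange shares with Ccnd1 are widest in adult mTEC.

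The kinases were both highest at E13.5. Cdk4 (chr10:127063534-127067920, plus strand) was at 744, 589, 412 and 361 CPM from E13.5 to NB, 148 and 214 in adult cTEC and 295 and 232 in adult mTEC. It fell at every step of age in the cortical line, with intervals that did not overlap, and both adult cTEC libraries lay below NB. At 2500 UMIs per cell, 82.5% of E13.5 cells held a Cdk4 UMI and 32.6% and 39.6% of adult cTEC did. Before thinning these shares were 96.5%, 42.8% and 68.1%. Cdk6 (chr5:3341485-3531008, plus strand) was at 39.0, 12.2, 9.23 and 11.4 CPM from E13.5 to NB, 17.1 and 6.89 in adult cTEC and 11.9 and 14.4 in adult mTEC. Only E13.5 stood apart. After E13.5 the 2 adult cTEC libraries, with 37 and 26 UMIs, spanned all others.

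Of the CIP/KIP inhibitors, Cdkn1a (chr17:29090976-29100727, plus strand) was at 64.4, 17.53, 27.8 and 53.2 CPM from E13.5 to NB, 242 and 141 in adult cTEC and 178 and 217 in adult mTEC. After the low point at E15.5 it was higher at each later age, and the 4 adult libraries lay above the 4 younger ones. The summed level of 14 other p53 targets ran from 456 to 590 CPM in the embryonic libraries and from 1053 to 1760 CPM after birth. Cdkn1b (chr6:134920401-134925513, plus strand) was at 20.9, 29.2, 21.5 and 59.3 CPM from E13.5 to NB, 56.5 and 33.4 in adult cTEC and 14.6 and 11.7 in adult mTEC. It was highest in newborn cTEC and adult cTEC 1 and lowest in adult mTEC. The 2 adult cTEC libraries did not overlap each other, and adult cTEC 2 overlapped E15.5.

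The INK4 gene Cdkn2a (chr4:89274471-89294653, minus strand) had 4, 0, 6 and 3 UMIs from E13.5 to NB, all at or below 0.275 CPM. It had 22 UMIs (10.2 CPM) in adult cTEC 1, 8 (2.12 CPM) in adult cTEC 2, and 753 and 2902 UMIs (45.5 and 43.3 CPM) in adult mTEC. The 2 mTEC libraries agreed within counting error and stood apart from every other library. Against a floor of 3 counts in the E15.5 library (0.109 CPM), adult mTEC were at least 417-fold and 397-fold higher. In adult cTEC 2 the gene was at 0.624 CPM (2 UMIs) in cells with Psmb11 or Prss16 and at 10.5 in cells with neither, and in adult cTEC 1 at 9.94 and 10.9. At 2500 UMIs per cell 8.42% and 9.30% of mTEC held a UMI, against 1.29% and 0.609% of adult cTEC and 1 cell each at E17.5 and in NB. At E13.5 0 of 1859 cells did and at E15.5 0 of 3525, for which the same floor of 3 allows shares of up to 0.161% and 0.0851%, limits on cells with a UMI at this depth and not on cells expressing the gene.

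Cdkn2c (chr4:109660876-109667189, minus strand) was at 9.47, 11.9, 5.32 and 7.54 CPM from E13.5 to NB, 19.5 and 34.2 in adult cTEC and 63.9 and 41.7 in adult mTEC. In quiet cells alone the 4 younger libraries were at 3.01, 1.44, 1.40 and 1.09 CPM, whereas adult cTEC were at 15.47 and 22.7 CPM and adult mTEC at 58.9 and 36.3. In quiet cells the adult libraries were thus all above the younger ones, and the step from NB to adult cTEC was 14.1-fold and 20.7-fold, from 19 UMIs in NB. The adult cTEC cells with Psmb11 or Prss16 were also high, at 13.3 and 23.6 CPM when quiet. Rb1 (chr14:73183673-73325822, minus strand) was the least variable member, between 16.8 CPM (NB) and 25.5 CPM (E13.5), and each library overlapped its neighbour in order.

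**Figure D2:**
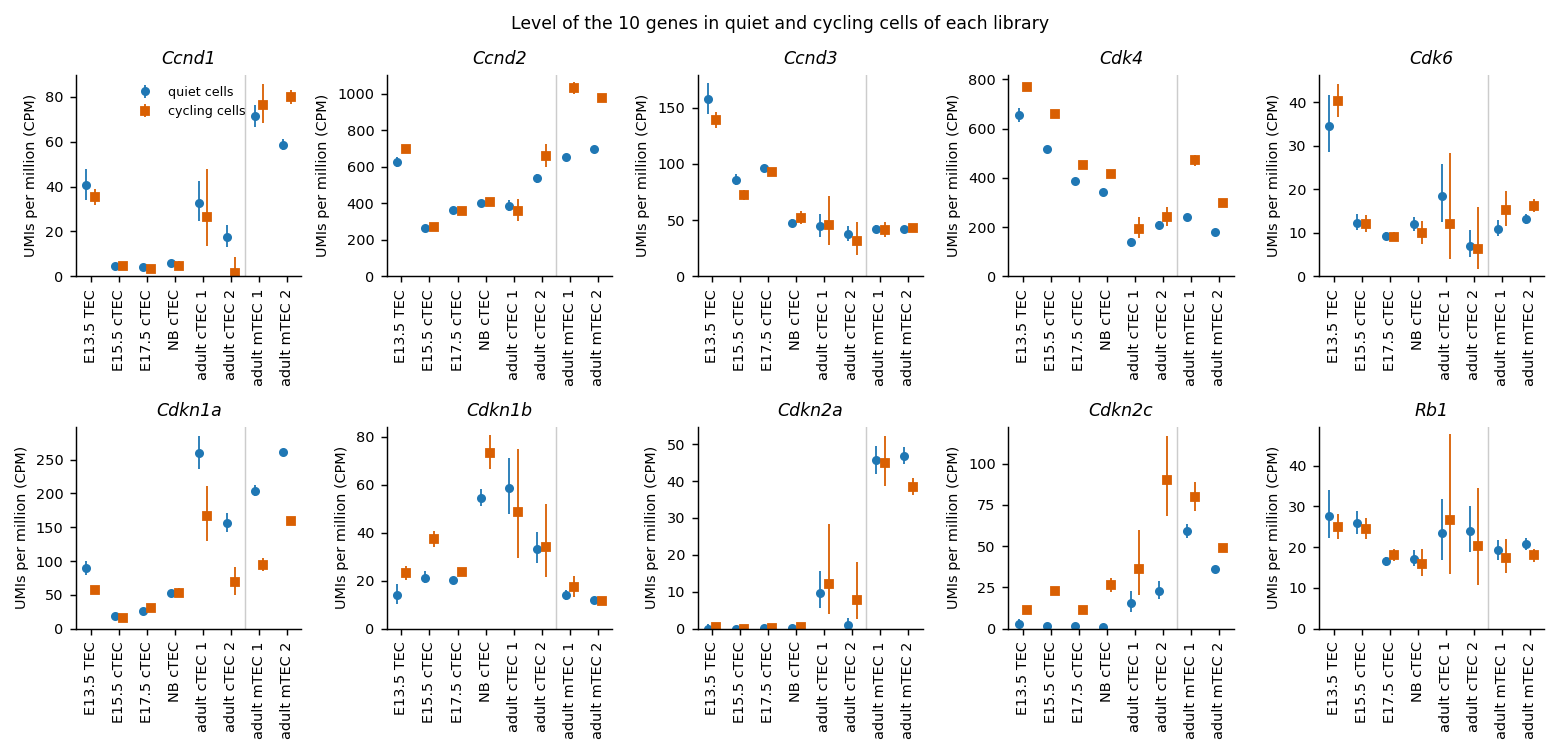
CPM of each of the 10 genes (y axis, from 0) in quiet (blue circles) and cycling (orange squares) cells of the 8 libraries, the cortical line left of the grey line and adult mTEC right of it; bars are exact 95% Poisson intervals, which cover counting error only. Cdk4 steps down from 655 to 137 CPM in quiet cortical cells, and Cdkn2c in quiet cells is at 3.01 CPM or below until the adult libraries.

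To ask whether the levels changed with age, a slope per step of age (the 5 ages ranked from E13.5 to adult) was fitted over the 6 libraries of the cortical line, total TEC at E13.5 and cTEC afterwards, with the data set as covariate, by edgeR's quasi-likelihood test with Benjamini-Hochberg adjustment over all 14469 genes tested. Of the 10 members 2 passed at an adjusted p of 0.05, both lower, beside 7.48% of all genes (4.67% higher, 2.81% lower). Ccnd3 fell by 0.46 on the log2 scale per step (SE 0.092, adjusted p = 0.0373) and Cdk4 fell by 0.51 (SE 0.11, adjusted p = 0.0445). Cdkn1b had a slope of 0.38 (SE 0.090, adjusted p = 0.0554), Cdkn2a of 1.59 (SE 0.55, adjusted p = 0.130), Cdkn1a of 0.58 (SE 0.22, adjusted p = 0.156) and Cdkn2c of 0.33 (SE 0.21, adjusted p = 0.348), and these did not pass. The slopes of Cdk6, Ccnd1, Ccnd2 and Rb1 lay between -0.28 and 0.06 with adjusted p of 0.243 or more. Both calls rested on few libraries: Ccnd3 did not pass in data set 1 alone (adjusted p = 0.0845), without E13.5 (0.0787) or without adult cTEC 1 (0.156) or 2 (0.0859), and Cdk4 did not pass in data set 1 alone (0.116) or without adult cTEC 1 (0.195) or 2 (0.128). Over the 5 cTEC libraries alone, without E13.5, Cdk4 passed (-0.59, adjusted p = 0.0445). Both calls held without haemoglobin-rich cells and without cells with thyroid markers. Over all alternatives run for the slope in all cells, including those above, 9 results of Ccnd3 and Cdk4 lost the call. Without E13.5, slopes also passed for Ccnd1 (0.86, adjusted p = 0.0396), Cdkn1a (1.17, adjusted p = 0.00454) and Cdkn2a (3.15, adjusted p = 0.0187). Ccnd1 and Cdkn1a were higher at E13.5 than at E15.5, while Cdkn2a had 4 and 0 UMIs there, with overlapping intervals.

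In quiet cells only, which may hold other cycle transcripts, 2 of the 9 members tested passed, beside 4.68% of 13193 genes (3.59% higher, 1.09% lower). Ccnd3 fell by 0.48 per step (SE 0.088, adjusted p = 0.0363) and Cdkn1b rose by 0.53 (SE 0.095, adjusted p = 0.0355). Cdk4 kept nearly the same slope as in all cells, -0.48 (SE 0.11), with an adjusted p of 0.0665. Cdkn2c had the steepest slope among the tested members, 0.82 (SE 0.36, adjusted p = 0.226), and Cdkn2a was left out by the filter on low counts. The calls of Ccnd3 and Cdkn1b did not hold without E13.5 (adjusted p = 0.0657 and 0.0725), without adult cTEC 1 (0.157 and 0.188) or without adult cTEC 2 (0.107 and 0.0808). Over all alternatives run for the slope in quiet cells, including these, 13 results of the 2 genes lost the call. Without adult cTEC 1 the number of genes called fell from 1083 to 22 in all cells and from 618 to 2 in quiet cells. A test of the difference between the slopes in cycling and in quiet cells called none of the 9 members and 3 of 12171 genes (0.0246%, of which 0.0164% higher and 0.00822% lower), with 1163 genes at an unadjusted p under 0.05. The differences (cycling minus quiet) were -0.39 for Cdkn2c (SE 0.24, adjusted p = 0.655), -0.23 for Cdkn1b (adjusted p = 0.320) and -0.18 for Cdk6 (adjusted p = 0.413), and lay between -0.17 and 0.04 for the other 6.

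Next, adult cTEC were compared with adult mTEC, 2 libraries each with the data set as covariate. This fit left 1 residual degree of freedom, so its p-values rested mostly on the spread pooled over genes. In quiet cells they rested on that pooled spread alone, so p-values in all and in quiet cells cannot be set against each other. Of the 10 members 3 passed in all cells, beside 30.8% of 15580 genes (10.7% higher and 20.2% lower in cTEC), and 4 in quiet cells, beside 31.1% of 15052 genes (10.1% higher and 21.0% lower). Both shares of the members are near the background. Cdkn2a was lower in cTEC by -3.20 log2 (SE 0.51, adjusted p = 3.76e-05) in all cells and by -3.58 (SE 0.53, adjusted p = 3.88e-10) in quiet cells. Ccnd1 was lower by -1.76 (SE 0.40, adjusted p = 0.00151) and by -1.50 (SE 0.42, adjusted p = 0.00235). Cdkn1b was higher in cTEC by 1.66 (SE 0.40, adjusted p = 0.00255) and by 1.72 (SE 0.43, adjusted p = 0.000528). These 3 genes kept the direction within both data sets. In quiet cells Ccnd1 was at 32.7 against 71.4 CPM in data set 1 and at 17.6 against 58.7 in data set 2, and Cdkn1b was at 58.4 against 13.8 and at 33.2 against 11.8.

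Cdkn2c passed in quiet cells only, at -1.32 (SE 0.44, adjusted p = 0.0116) against -1.03 (SE 0.42, adjusted p = 0.0683) in all cells, where it passed with RLE size factors (adjusted p = 0.0483), and whether the 2 values differ was not tested. Its difference was 15.47 against 58.9 CPM in data set 1 and 22.7 against 36.3 in data set 2. The call in quiet cells was lost in 8, the majority, of the alternatives run. Ccnd2 (-0.82, adjusted p = 0.120) and Cdk4 (-0.62, adjusted p = 0.250) were lower in both cTEC libraries in all cells but did not pass. In quiet cells Ccnd2 was at -0.63 (adjusted p = 0.281), and Cdk4 at -0.36 (adjusted p = 0.582), with 137 against 240 CPM in data set 1 but 209 against 181 in data set 2. For Ccnd3 the 95% interval of the difference was -0.89 to 0.65, for Rb1 -0.57 to 1.06, for Cdk6 -1.27 to 0.62 and for Cdkn1a -0.95 to 0.64. Leaving out 1 library left 3, fitted without the data set term and, like the main fit, with 1 residual degree of freedom. The lone library of a lineage was then assumed to vary like the other pair. In these fits the call of Ccnd1 was lost without adult mTEC 1 in all cells (adjusted p = 0.135) and without adult mTEC 1 (0.0776) or adult cTEC 2 (0.0902) in quiet cells. Cdkn1b was lost in all cells without adult mTEC 1 (0.148) or 2 (0.0998), and in quiet cells without adult cTEC 1 (0.0555) or adult mTEC 2 (0.0564). Cdkn2a was lost in all cells without adult mTEC 1 (0.0948) and held in quiet cells without any 1 library.

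**Figure D3:**
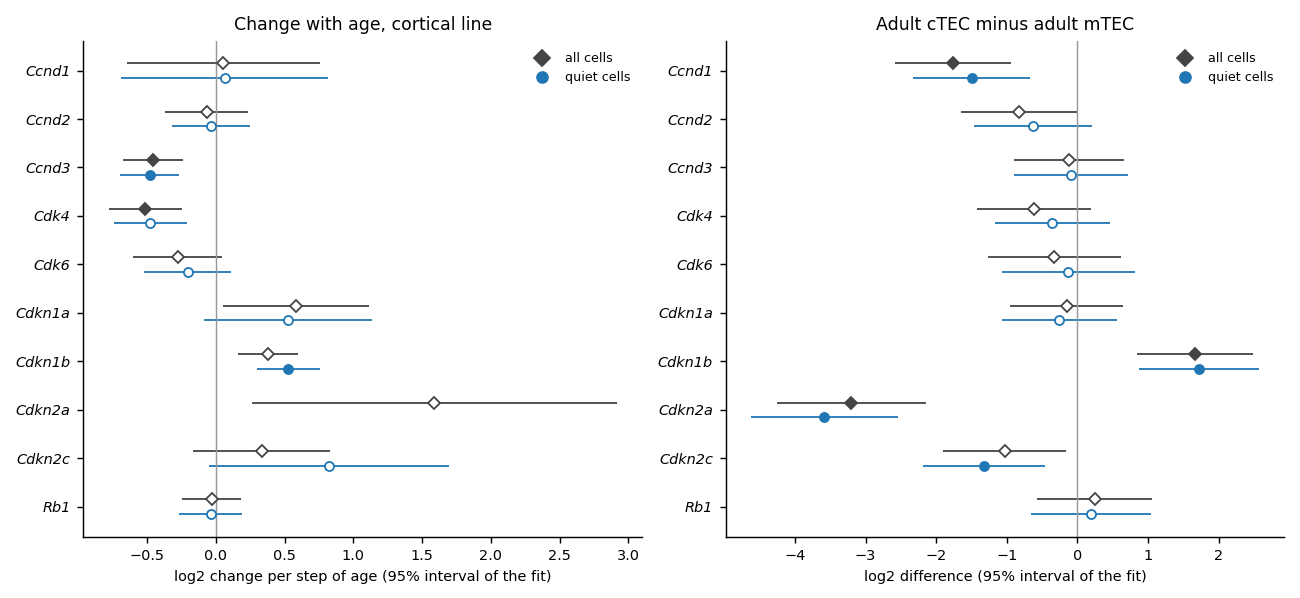
Left, log2 change per step of age over the 6 libraries of the cortical line, and right, log2 difference of adult cTEC minus adult mTEC, for the 10 genes in all cells (grey diamonds) and quiet cells (blue circles), with the 95% interval of the edgeR fit; filled symbols have an adjusted p under 0.05. Cdk4 and Ccnd3 lie left of 0 with age, and Cdkn2a lies farthest left and Cdkn1b farthest right in the lineage comparison.

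Cycling and quiet cells were then compared within each of the 8 libraries, with the library as a block. Of the 10 members 3 passed, 2 higher and 1 lower in cycling cells, beside 19.5% of 12914 genes (8.80% higher, 10.7% lower). Cdk4 was higher in cycling cells by 0.41 log2 (SE 0.089, adjusted p = 0.00699), with a ratio of cycling to quiet between 1.15 (adult cTEC 2) and 1.96 (adult mTEC 1), above 1 in 8 of 8 libraries. Cdkn1a was lower by -0.53 (SE 0.14, adjusted p = 0.0183), with ratios from 0.438 (adult cTEC 2) to 1.14 (E17.5), below 1 in 6 of 8 libraries. At E15.5, E17.5 and NB its ratio lay between 0.877 and 1.14, and in the 4 adult libraries and at E13.5 between 0.438 and 0.643.

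Cdkn2c, an inhibitor of Cdk4 and Cdk6, was the member with the largest difference between states and was higher in cycling cells, by 1.85 (SE 0.42, adjusted p = 0.00873). Its level in cycling cells was 11.4, 22.6, 11.3 and 26.3 CPM from E13.5 to NB, 36.3 and 90.1 in adult cTEC and 79.6 and 48.9 in adult mTEC. The ratio to quiet cells was 3.79, 15.7, 8.06, 24.0, 2.35 and 3.97 in the cortical line and 1.35 and 1.35 in adult mTEC. Every library thus had the same direction, with the 2 mTEC libraries at the low end. At 2500 UMIs per cell 7.09% of the 423 cycling NB cells held a Cdkn2c UMI, against 0.464% of the quiet ones. None of Ccnd1, Ccnd2, Ccnd3, Cdk6, Cdkn1b, Cdkn2a and Rb1 passed. Ccnd3 and Rb1 differed by -0.09 and -0.10 with 95% intervals of -0.21 to 0.04 and -0.25 to 0.04, and the interval of Cdkn1b was 0.06 to 0.54 (adjusted p = 0.0748).

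**Figure D4:**
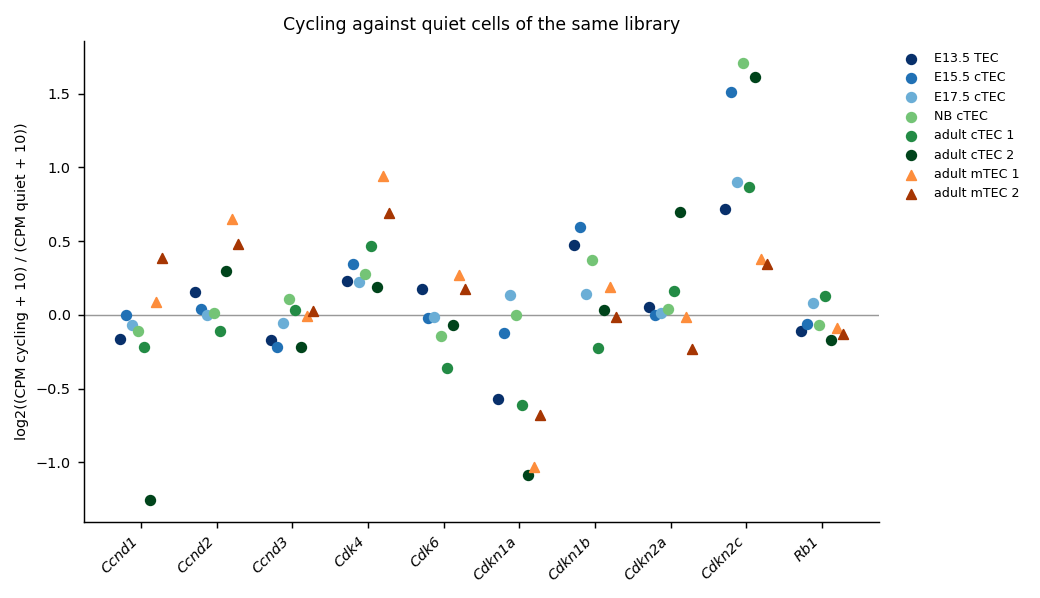
Difference between cycling and quiet cells of the same library for the 10 genes, as log2 of the CPM ratio with 10 CPM added to both (y axis), 1 point per library, cortical line as circles and adult mTEC as triangles. Cdk4 and Cdkn2c are above 0 in all 8 libraries, and the 2 mTEC triangles are the highest points for Cdk4 and Ccnd2 and the lowest for Cdkn2c.

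Whether the difference between states itself differed between adult mTEC and the cortical line was tested after these values had been seen, by a term for mTEC in the same fit. It passed for 3 of the 10 members, beside 4.78% of 12914 genes (1.63% higher, 3.15% lower in mTEC). The cycling excess of Cdkn2c was smaller in mTEC, by -2.53 log2 (SE 0.38, adjusted p = 0.00625), and the excess of Cdk4 (0.59, SE 0.099, adjusted p = 0.00929) and of Ccnd2 (0.53, SE 0.10, adjusted p = 0.0153) was larger. Ccnd2 was at 1033 CPM in cycling and 654 in quiet cells of adult mTEC 1 and at 980 and 699 in those of adult mTEC 2, while its ratio in the cortical line was between 0.926 and 1.23. Among the 4 adult libraries alone the 3 differences had the same sign and none passed, at -1.13 (adjusted p = 0.397) for Cdkn2c, 0.70 for Cdk4 and 0.65 for Ccnd2 (adjusted p = 0.453 for both), so lineage and the inclusion of younger ages cannot be told apart here. Without adult mTEC 1 the differences of Cdk4 (0.47, adjusted p = 0.0720) and Ccnd2 (0.45, adjusted p = 0.111) did not pass, and by DESeq2 that of Cdkn2c did not (-2.31, adjusted p = 0.0607).

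Within adult mTEC the members were described in cells with and without a UMI of Aire, the regulator of self-antigen expression, and in cells with at least 10 Ccl21a UMIs per 10000 (Ccl21a-high), a chemokine made by a subset of mTEC, and below. These are ranges of cells, given for quiet cells and without a test. Aire+ cells were 46.3% and 69.8% of quiet mTEC, and Ccl21a-high cells 55.2% and 36.7%. Cdkn2a was at 9.43 and 21.7 CPM in Ccl21a-high cells and at 78.0 and 59.1 in the others, with no overlap between ranges. It did not follow Aire in the same way, with 51.4 CPM in Aire+ and 37.9 in Aire- cells of adult mTEC 1 but 42.1 and 65.7 in adult mTEC 2. Cdkn2c was higher with Aire, at 82.0 against 27.7 and at 39.6 against 23.5 CPM.

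Ccnd1 was at 104 and 94.3 CPM in Ccl21a-high cells and at 42.1 and 41.6 in the others, and Cdk4 was higher there too, at 305 and 255 against 182 and 146. Ccnd2 was at 813 and 761 CPM in Aire+ cells and at 440 and 461 in Aire- cells. Cdkn1a was lower with Aire, at 148 against 280 CPM in adult mTEC 1 and at 225 against 401 in adult mTEC 2. For Ccnd1, Ccnd2, Cdk4, Cdkn1a and Cdkn2c these directions were the same in both libraries. The share of cycling cells was 25.0% in Aire+ and 7.94% in Aire- cells of adult mTEC 1, and 38.4% and 20.7% in adult mTEC 2, before the restriction to quiet cells. Aire+ and cycling cells were both called from at least 1 UMI without thinning. Cycling mTEC were deeper, with a median of 14414.5 and 14995 UMIs against 8683.5 and 9810 in quiet ones, and the part of depth in these shares was not tested.

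**Figure D5:**
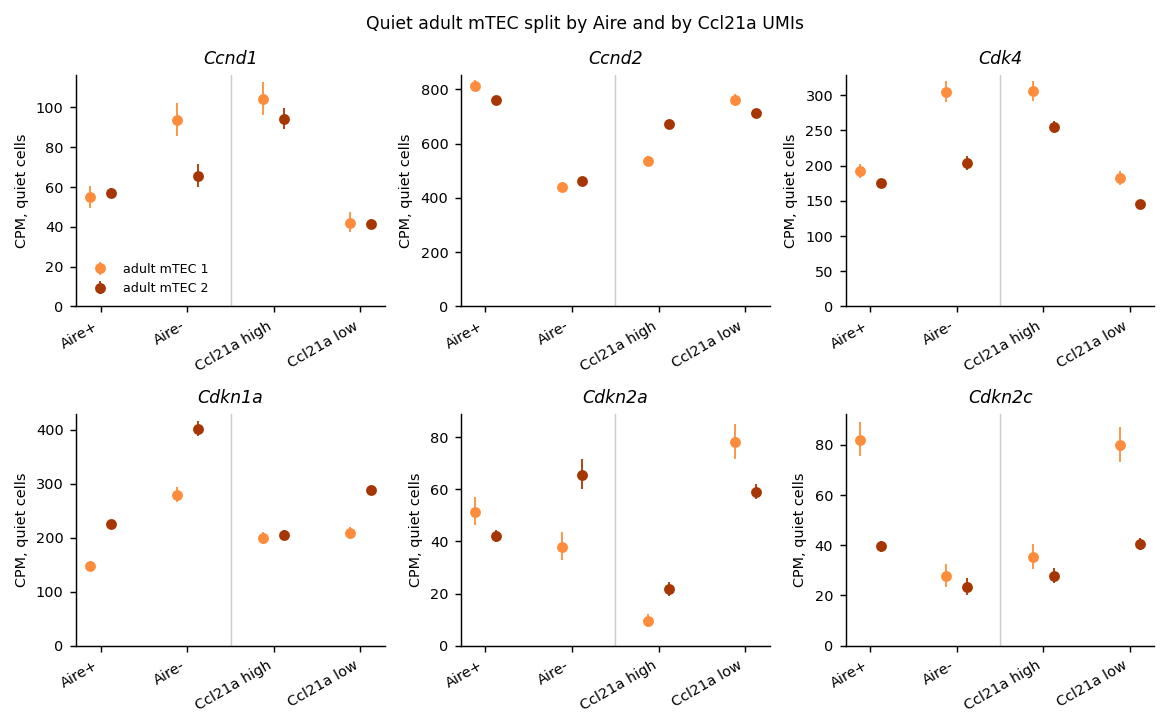
CPM in quiet adult mTEC (y axis, from 0) of 6 of the genes, in cells with (Aire+) and without (Aire-) an Aire UMI and with at least 10 (Ccl21a high) or fewer (Ccl21a low) Ccl21a UMIs per 10000, for the 2 libraries in 2 shades, with exact 95% Poisson intervals. Ccnd1 and Cdk4 are higher and Cdkn2a lower in Ccl21a-high cells, and Ccnd2 and Cdkn2c are higher and Cdkn1a lower in Aire+ cells, in both libraries.

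The other genes around G1 and S entry were taken as a list of 25 (late cyclins, E2F factors, other inhibitors and pocket proteins). With age 0 rose and 9 fell in all cells, where 4.67% of all genes rose and 2.81% fell, with a median slope of -0.39 against -0.0015 over all genes. Of the 24 tested in quiet cells 0 rose and 3 fell, beside 3.59% and 1.09% of all genes. Among the 9 were Cdkn1c, the remaining CIP/KIP inhibitor gene (-1.13, adjusted p = 0.0442), Ccna2, the S phase cyclin (-0.99, adjusted p = 0.0465), and Skp2, which targets the Cdkn1b product for degradation (-0.86, adjusted p = 0.0124). In quiet cells Ccna2 (-1.33), E2f7 (-0.67) and Skp2 (-0.67) passed. In cycling against quiet cells 17 were higher and 0 lower, beside 8.80% and 10.7% of all genes, with a median of 0.68 against -0.07 over all genes, led by Ccna2 (3.76), Ccne2 (2.53) and E2f8 (2.14). The cells were split by the cycle transcripts Mki67 and Top2a, so higher S phase genes in cycling cells follow in part from the split itself.

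Between the adult lineages 3 of the 25 were higher and 7 lower in cTEC in all cells, near the 10.7% and 20.2% of all genes, with a median of -0.71 against -0.14 over all genes. The INK4 gene Cdkn2b (-2.78, SE 0.43, adjusted p = 2.73e-05), a neighbour of Cdkn2a on chromosome 4, and Cdkn1c (-3.55, SE 0.44, adjusted p = 1.42e-06) were lower in cTEC, as Cdkn2a was. E2f2 (-4.16) was lower too, and Tfdp2, a dimer partner of E2F factors, was higher (2.03, adjusted p = 0.000237).

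For the remaining lists the shares over all genes were again 4.67% higher and 2.81% lower with age, and 8.80% higher and 10.7% lower in cycling cells. Of the p53 targets 4 of 14 rose with age and 0 fell, led by Btg2 (1.39, adjusted p = 0.0111), and 6 of 13 were lower and 0 higher in cycling cells, where Cdkn1a was also lower. Of the 12 dissociation-response genes 10 rose with age and 0 fell, and 9 were lower and 0 higher in cycling cells, the signs that Cdkn1a had in both comparisons (its own age slope did not pass), and the part of this list in the values of Cdkn1a was not tested. Of the 8 mitogen and AP-1 genes 1 rose with age (Fosl1, 2.27) and 3 fell, the fetal growth genes Igf2 (-2.03) and Hmga2 (-1.98) and Mycn (-1.20).

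Over the 8 libraries, each member was set against 5970 genes by Pearson's r of log2(CPM + 10), as a description of libraries that share age, lineage and depth. How high the top r would be for any gene over so few libraries was not tested. Cdk4 was most like Eef1g, a translation elongation factor (r = 0.997), then the ribosomal protein gene Rpl24 (r = 0.987) and Cdca4 (r = 0.983). Ccnd3 was most like the glycolysis genes Ldha (r = 0.973) and Pkm (r = 0.957), with Prelid2 at the same r as Pkm to 3 digits. Cdkn1a was most like the metallothionein genes Mt2 (r = 0.983) and Mt1 (r = 0.969), with Map1b between them. Ccnd1 was most like Dmkn (r = 0.990), Cdkn1b most like Hdac4 (r = 0.987), Cdkn2a most like Gm13305 and Calcb (r = 0.999 for both), Cdkn2c most like Npdc1 (r = 0.962), Cdk6 most like Dnajc5 (r = 0.949), Ccnd2 most like Celf2 (r = 0.926) and Rb1 most like Cox6c (r = 0.976).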

How the data were processed

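Single-cell RNA of 8 sorted TEC libraries was measured on the 10x Chromium. The authors deposited raw UMI counts per gene and cell. Per the labels, the submitters' processing notes name bcl2fastq 2.17, STAR 2.5.1b, Cell Ranger 2.0.1 and mm10, and the headers of 3 matrices (data set 2) name Cell Ranger 3.0.1. Data set 2 holds E17.5, adult cTEC 2 and adult mTEC 2, and the other 5 libraries form data set 1. Cells with over 5% mitochondrial UMIs or over 5000 genes were left out, as in the study's limits, as were 241 cells with at least 4 of 12 thymocyte markers (10 of which were in the shared genes) and 109 with at least 3 of 5 parathyroid markers. No doublet caller was run. The remaining cell count matched the study's in data set 1 before those marker rules and differed in data set 2.

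Levels are CPM (UMIs of the summed cells scaled to a common total over the shared genes), with exact 95% Poisson intervals. Shares of cells were taken after thinning to 2500 UMIs, with exact binomial intervals, and shallower cells were left out (0 to 161 a library). In adult cTEC 1 these were 106 of 493 cells, so its shares describe its deeper cells. Intervals cover counting error only, and precision was lowest in adult cTEC. Counts were summed per library, and per state for the cycling comparisons, and tested with edgeR 4.0.16 in R 4.3.3 (quasi-likelihood test, TMM, filterByExpr, Benjamini-Hochberg adjustment over all genes tested, threshold 0.05). DESeq2 1.42.0, RLE size factors, no filter, other cell limits, a stricter quiet definition over 10 genes, thinning and left-out libraries were alternatives. Tested on simulated counts, the fits recovered most of the changed genes. The planted changes were 1 log2 per step of age and 2 log2 between lineages and between states, only in genes above a minimum level. Recovery of smaller changes, as most members had, or of genes at lower levels was not tested. The share of false calls was above the threshold for the age trend and the comparison of states, so calls near the threshold are less secure there. Python 3.11.15, numpy 2.4.6, scipy 1.17.1, pandas 2.3.3 and matplotlib 3.10.9 did the rest.

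The members and gene lists were chosen with earlier results of these data known. The text names every member, the leading called genes of each list and the genes most like each member. Positions are from GENCODE M21 (GRCm38).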

Additional observations from a re-analysis of the deposited data

Results flagged for a closer look

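In 3 of the genes the difference between cycling and quiet cells was not the same in adult mTEC and in the cortical line, by a test of the difference chosen after the values had been seen. The difference was 0.53 for Ccnd2, 0.59 for Cdk4 and -2.53 for Cdkn2c (log2, mTEC minus cortical line). Among the adult libraries alone none of the 3 passed, so lineage and the inclusion of younger ages cannot be told apart.

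Cells that were set aside, and that enter no comparison, had levels above those of the kept cells of the same library in some genes. At E13.5 the 97 cells set aside for parathyroid markers had 191 CPM of Ccnd3 against 143 in kept cells, 101 CPM of Cdkn1a against 64.4 and 30.2 CPM of Cdkn2c against 9.47. In the same cells Cdk4 (381 CPM against 744), Ccnd2 (582 against 682) and Rb1 (6.04 against 25.5) lay below the kept cells.

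The cells set aside for thymocyte markers had Ccnd3 above the kept cells in each of the 5 libraries with at least 10 such cells. The values were 220 CPM in 39 cells at E17.5 (94.9 in kept cells), 163 in 139 cells in NB (48.4), 188 in 14 cells of adult cTEC 1 (44.9), 129 in 24 cells of adult cTEC 2 (36.5) and 101 in 20 cells of adult mTEC 2 (42.4). Ccnd2 was below the kept cells in all 5.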

How the results depend on the processing

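Of 717 member results over the alternatives, 605 kept direction and side of the threshold, 47 lost the call, 23 gained one and 42 changed sign; the cause was not tested. Depth limits adult cTEC most, with 493 and 511 cells.

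DESeq2 called 2724 genes with age in all cells and 1770 in quiet cells, 2579 and 2148 between lineages, 56 for the difference of age slopes between states and 1281 for the added difference between mTEC and the cortical line. Data set 1 alone gave 407 and 170 genes with age, and leaving out E13.5 gave 1074 in quiet cells. Leaving out 1 adult library gave 22 to 454 genes with age in all and 2 to 224 in quiet cells, 573 to 2813 and 988 to 2507 between lineages, and 203 to 934 for the added difference. Leaving out 1 library gave 1645 to 2516 genes between states. The stricter quiet definition gave 2829 genes between lineages. Thinning gave 3108 there, 1577 between states and 47 for the added difference. Without the filter 212 genes passed for the difference of slopes, and with all deposited cells 15, with 1808 for the added difference, which called 4 in adult libraries alone. The library was the block in the comparison of states: without that replicate block 168 genes passed, and Ccnd1 (0.022) and Cdkn2a (-0.025) changed sign.

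With age, Ccnd1 in all and quiet cells became -0.040 and -0.026 without the data set term, -0.073 and -0.067 in data set 1, -0.40 and -0.39 without adult cTEC 1, -0.069 and -0.070 without adult cTEC 2, and -0.034 and -0.020 in adult cTEC with Psmb11 or Prss16 (chosen after seeing the data), and -0.087 in thinned quiet cells. Without E13.5, Ccnd2 became 0.20 and 0.21 and Cdk6 0.0024 and 0.030. In quiet cells Ccnd2 became 0.016 without the data set term and 0.045 under the stricter definition, where Rb1 became 0.0064. Between lineages with 1 library left out, Cdk6 ran from -0.93 to 0.19 in all and from -0.78 to 0.44 in quiet cells (0.10 without adult mTEC 2), and Cdkn1a from -0.48 to 0.10 in all cells (0.022 without adult mTEC 2). In quiet cells Cdk6 became 0.16 under the stricter definition and 0.28 when thinned. Ccnd3 became 0.12 and 0.036 in all deposited cells and 0.040 under the stricter definition. Between states, Ccnd1 became 0.090 under the stricter definition and 0.075 when thinned, and ran from -0.21 to 0.0058 with 1 library left out. Cdk6 became -0.076 when thinned and Ccnd3 0.057 in all deposited cells. For the difference of slopes, Rb1 became 0.010 with RLE size factors and Cdkn1a 0.013 in all deposited cells. For the added difference, adult libraries alone gave 0.18 for Cdkn1a, 0.40 for Cdkn1b and 0.063 for Rb1, and Rb1 became 0.015 when thinned and 0.030 without the filter.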
